A study of Oryza sativa Japonica Group and Oryza sativa Indica Group with 20 samples.

Results

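Of 54170 rice loci with an FPKM value (mapped fragments scaled to gene length and library size), 64 were abundant in the embryo of both cultivars and at least 8-fold lower in every callus made from it. They were chosen by these values themselves. A locus had to reach 50 FPKM in the embryo of the japonica cultivar Tainung 67 (TNG67) and in that of the indica cultivar IR64. In each of the 4 calli of each cultivar, FPKM + 1 had to be at most 12.5% of FPKM + 1 in the embryo of the same cultivar. The loss on going from embryo to callus is therefore a description with no test. The tests below compare only the 8 calli, by cultivar or by stage, and the rule used the callus values too.

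A callus is a mass of dividing plant cells without the organs of a seedling, grown here from seeds on agar medium. The stages were the embryo (T0), callus at induction (T1), subcultured callus (T2), regenerating callus (TS) and callus in which regeneration failed (TF). T1 and T2 grew with 2.5 mg/L of 2,4-D, a synthetic auxin. The medium of TS and TF held an auxin, NAA, at 0.02 mg/L and a cytokinin, BAP, at 2 mg/L. There are 10 RNA libraries, 1 for each cultivar and stage, with no replicate, and the labels name no plants, no number of pooled calli and no state of the seed from which the embryos came.

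In a cereal seed the embryo ends its development with a maturation programme. It stores oil and protein, makes proteins that protect cells during drying, and holds this state under abscisic acid until water returns. Transcripts of that programme are known to be among the most abundant of a ripe embryo and to be lost when growth starts. Which of the 64 loci belong to it is not given here: neither the deposited table nor the RefSeq gene table used (assembly ASM3414082v1) pairs their identifiers with a name, so the loci appear by identifier, with the chromosome that the identifier encodes, and without roles or sequences. For the same reason the embryo label was not checked against marker genes.

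Summed FPKM was 602209 to 1063007 in 9 libraries and 3792962 in the IR64 embryo, where LOC_Os12g13870, no member, was listed at 3000000. That round value exceeds the sum of any other library, and whether it is a failed estimate was not tested. Without that locus the IR64 embryo summed to 792962, and shares below leave it out. Median-ratio size factors over 21136 loci above 0 in all libraries lay between 0.9585 and 1.04. Sequencing depth was unknown, since FPKM values are not counts, and "listed at 0" is used for a value of exactly 0, because it need not mean that no read was seen. A lower level in these bulk samples can come from fewer cells of a type or from less RNA per cell, which cannot be told apart.

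The 64 members carried 6.79% of summed FPKM in the TNG67 embryo and 8.81% in the IR64 embryo. In the calli they carried 0.242% to 0.446% in TNG67 and 0.164% to 0.359% in IR64. Their median level was 566 FPKM in the TNG67 embryo, with a range of 72.7 to 7300. In the IR64 embryo the median was 274 FPKM and the range 54.6 to 22400. The median in the TNG67 calli was 7.37 FPKM at T1, 8.4 at T2, 13.1 at TS and 11.6 at TF. In IR64 it was 5.85, 5.5, 7.14 and 12.3 FPKM in the same order. Among the 100 most abundant loci of a library, 15 in the TNG67 embryo and 17 in the IR64 embryo were members, against 0 or 1 in each callus.

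**Figure D1:**
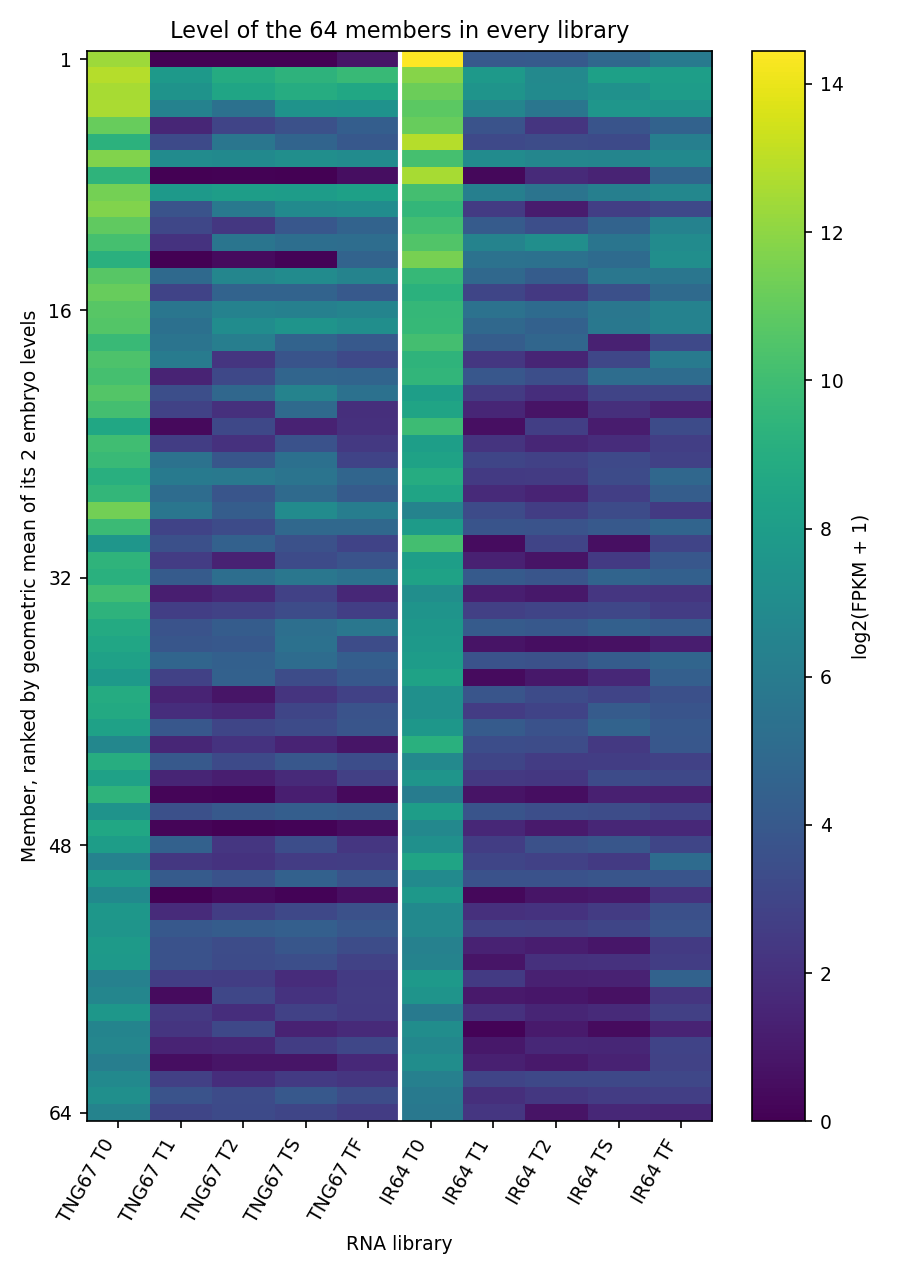
Level of each member as log2(FPKM + 1) (colour) in the 10 RNA libraries (columns), with members in rows ranked by the geometric mean of their embryo levels. Both embryo columns are bright from top to bottom, and the callus columns are darker in every row; 12 members, most of them in the upper part, kept at least 10 FPKM in all 8 calli.

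Few members were lost from the calli altogether. Of the 512 callus values 6 were listed at 0, in 4 loci, and 22 members were under 1 FPKM in at least 1 callus, but none was under 1 FPKM in all 8. At the other end, 12 members stayed at 10 FPKM or more in all 8 calli and 11 reached 100 FPKM in at least 1. A typical member kept a few percent of its embryo level. The median of (FPKM + 1) as a percentage of the embryo was 2.68% at T1, 2.81% at T2, 4.06% at TS and 3.12% at TF in TNG67, and 2.5%, 2.36%, 3.35% and 5.81% in IR64. The other 2002 loci with at least 50 FPKM in both embryos kept a median of 43.7% to 58.5%, which the rule makes higher.

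**Figure D2:**
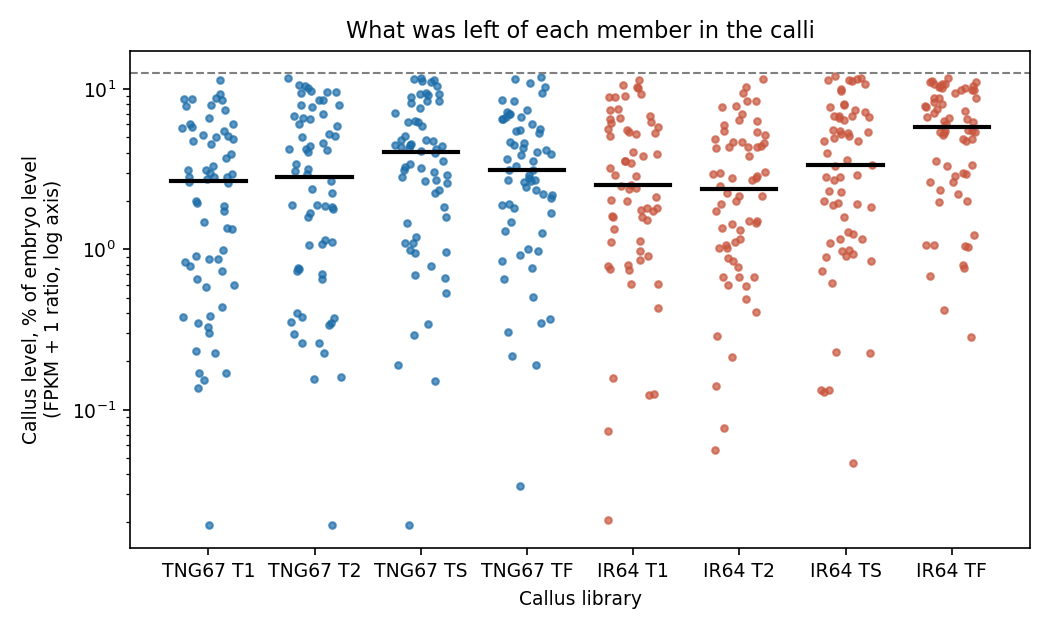
Callus level of each member as a percentage of the embryo level of the same cultivar, on FPKM + 1 and a log axis, in the 8 callus libraries. Points are members (spread sideways at random), black bars are medians, and the dashed line is the 12.5% that the rule allows; the IR64 TF library has the highest median, 5.81%, and no member below 0.282%.

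LOC_Os08g03410 on chromosome 8 was the most abundant member over both embryos and, by the smallest of its 8 embryo-to-callus ratios, the one with least left. It stood at 22354.5 FPKM in the IR64 embryo and 5240.43 in the TNG67 embryo. In TNG67 it was listed at 0 at T1, T2 and TS and at 0.755 at TF. In IR64 it kept 15.4 FPKM at T1, 16.1 at T2, 28.9 at TS and 62.1 at TF. The callus values of the cultivars did not overlap. This 1 locus made up 32% of the members' summed level in the IR64 embryo.

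LOC_Os11g37270 on chromosome 11 came next by the smallest ratio, and less of it than of LOC_Os08g03410 was left at T1, T2 and TS of IR64. It was at 666.836 FPKM in the TNG67 embryo and at 0.0268, 0.0461, 0.0108 and 0.45 in T1, T2, TS and TF. In IR64 it was at 5934.54 FPKM in the embryo and at 0.221, 2.35, 1.76 and 23.9 in the calli. TF was the highest callus in both cultivars. These were the 2 members at least 100-fold below the embryo (FPKM + 1) in all 8 calli.

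LOC_Os05g39310 on chromosome 5 was the second most abundant member and lay close to the limit of the rule. It stood at 7295.89 FPKM in the TNG67 embryo and at 214 (T1), 476 (T2), 652 (TS) and 861 (TF) in the calli. In the IR64 embryo it was at 3674.77 FPKM and in the calli at 225, 109, 297 and 273. Although 8.47-fold or more below its embryo on the FPKM + 1 scale, it was the most abundant member in 6 of the 8 calli. It was also the 1 member to enter the 100 most abundant loci of a callus, at TS and TF of TNG67.

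The limit of the rule cuts through a continuum. Just inside it, besides LOC_Os05g39310, was LOC_Os12g41110, whose smallest ratio was 8.28 (198.459 FPKM in the IR64 embryo and 23.1 at IR64 TS). Just outside were LOC_Os05g48700 with 7.94 (182.076 FPKM in the TNG67 embryo and 22.1 at TF) and LOC_Os03g03790 with 7.88 (321.763 and 40.0 at TNG67 TS). The median of the smallest ratios of the 64 members was 11.1, with 42 of them under 16 and 8 at 32 or more. Quantile normalization, which gives all libraries the same distribution of values, left 29 of the 64.

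Members were commoner among the most abundant embryo loci. Grouped by the geometric mean of FPKM + 1 in the embryos, 18 of 95 loci at 1000 or more were members (18.9%). The share was 7.56% of 119 loci between 500 and 1000, 4.78% of 418 between 200 and 500, 2.03% of 690 between 100 and 200, and 0.403% of 744 below. The rule used the same embryo values, so these shares describe what it picked.

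Loss in 1 cultivar did not always come with loss in the other. Of the 2066 loci with at least 50 FPKM in both embryos, 178 met the 8-fold limit in all 4 TNG67 calli, 125 in all 4 IR64 calli and 64 in both sets. By library, the limit was met by 381 loci at T1 and 368 at T2 in TNG67 and by 326 and 329 in IR64. It was met by 273 at TS and 272 at TF in TNG67 and by 242 and 173 in IR64. The IR64 TF library was the strictest. Another 16 loci met the rule in the other 7 calli and missed it at IR64 TF, where the ratios were 1.47 to 7.65. Each of the other 7 libraries kept out 1 to 6 loci in this way. The furthest from the limit was LOC_Os04g52260 on chromosome 4, named after its values were seen. It was at 236 FPKM in the IR64 embryo and at 1.93 (T1), 1.86 (T2), 4.85 (TS) and 161 (TF) in the calli. In TNG67 it was at 355 FPKM in the embryo and at 2.39, 0.737, 1.01 and 23.0, so TF was the highest callus there too.

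The embryos of the cultivars also differed in the level of these loci, mostly toward TNG67 at any size but not at 4-fold. With 1 embryo library each there is no test, and the rule used these same embryo values. Reads of an indica cultivar were mapped to a japonica genome, so transcript level and mapping cannot be told apart. Members at least 4-fold apart (FPKM + 1) numbered 6 higher in TNG67 and 6 higher in IR64, or 9.38% of 64 each. The same limit was passed by 11.2% (TNG67 higher) and 6.53% (IR64 higher) of 3689 loci with at least 50 FPKM in either embryo. Among the 2066 loci at that level in both, as the rule demands, the shares were 5.03% and 1.6%. At any size, 46 members were higher in the TNG67 embryo and 18 in the IR64 embryo. The median difference of members, TNG67 minus IR64, was 0.86 on the log2(FPKM + 1) scale against 0.42 over the 2066 loci. Quantile normalization took these medians to 0.3 and 0.01 and the 4-fold counts to 3 and 7, so the lean toward TNG67 depends on how the embryo libraries are scaled.

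LOC_Os12g13860 on chromosome 12 had the largest embryo difference. It stood at 2630.94 FPKM in the TNG67 embryo and 86.4 in the IR64 embryo. The TNG67 calli held 50.0 (T1), 18.4 (T2), 124 (TS) and 68.8 (TF) FPKM and the IR64 calli 8.93, 5.11, 8.98 and 4.46. All 5 TNG67 libraries exceeded the IR64 library of the same stage. The next identifier in the table is LOC_Os12g13870, the locus listed at 3000000 FPKM in the IR64 embryo, which went the opposite way: it was listed at 0 in all 5 TNG67 libraries and was at 8776.91, 7026.3, 29715.4 and 44016.7 FPKM in the IR64 calli. Whether reads of 1 of these loci were assigned to the other was not tested. LOC_Os01g70370 on chromosome 1 was at 677.566 FPKM in the TNG67 embryo and 67.3 in that of IR64, and at 0.0853 to 1.46 in the 8 calli.

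In the other direction LOC_Os03g57960 on chromosome 3 was at 7233.67 FPKM in the IR64 embryo and 630.396 in the TNG67 embryo. Its calli did not repeat that order. The TNG67 calli held 8.4, 49.3, 24.3 and 14.5 FPKM, and the IR64 calli, whose range overlapped with theirs, held 8.07, 9.17, 8.32 and 75.3. LOC_Os11g37270, described above, had the next largest excess in the IR64 embryo.

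The calli of the cultivars differed in 29 members, a share not far from that of all loci, with more of the calls toward TNG67. The 8 calli were fitted with cultivar and stage as additive terms in limma, over the 22308 loci that reached 1 FPKM in 2 or more calli. Of the 63 members in that fit, 20 were higher in TNG67 calli (31.7%, against 18.6% of all loci tested) and 9 were higher in IR64 calli (14.3%, against 21.1%) at a limma adjusted p of 0.05 or less. The median difference of members, TNG67 minus IR64, was 0.56 on the log2(FPKM + 1) scale, and that of all loci was -0.01. Ranges of the 4 calli of each cultivar did not overlap for 12 of the 64 members with TNG67 higher (18.8%, against 16.6% of all loci) and for 7 with IR64 higher (10.9%, against 18.4%). In either direction limma called 46.0% of members against 39.6% of all loci, and ranges were separate for 29.7% against 35.1%. The rule caps the callus values of a member by its embryo level in the same cultivar, and all loci tested have no such cap. Since 46 members were higher in the TNG67 embryo and 18 in the IR64 embryo, the cap was higher in TNG67 for most members. How much of the lean toward TNG67 calli comes from this cap was not tested.

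LOC_Os02g56460 on chromosome 2 had the largest difference toward TNG67. Its TNG67 calli held 11.9 (T1), 56.5 (T2), 120 (TS) and 130 (TF) FPKM, and its IR64 calli 4.62, 1.15, 5.33 and 8.2. All TNG67 calli exceeded all IR64 calli, and limma put the difference at 3.51 in log2(FPKM + 1) (SE 0.60, adjusted p = 0.0104). The embryos stood at 3397.04 and 744.842 FPKM. LOC_Os10g13850 on chromosome 10 held 13.6, 14.5, 40.4 and 9.06 FPKM in TNG67 calli and 0.672, 0.426, 0.569 and 1.25 in IR64 calli, with a fitted difference of 3.36 in log2(FPKM + 1) (SE 0.41, limma adjusted p = 0.00423). Its embryos were nearer each other, at 371.471 and 212.057 FPKM.

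Toward IR64 the largest difference was that of LOC_Os08g03410, whose values are given above, at -4.55 on the log2(FPKM + 1) scale (SE 0.24, limma adjusted p = 0.000309). LOC_Os11g10590 on chromosome 11 followed with -4.45 (SE 0.51, limma adjusted p = 0.00339). It was at 584.507 FPKM in the TNG67 embryo, listed at 0 at T1, at 0.317 at T2 and 0.118 at TS, and at 23.3 at TF. In IR64 it was at 2832.46 FPKM in the embryo and at 42.4, 40.4, 31.9 and 137 in the calli. TF was the highest callus of both cultivars, and every IR64 callus exceeded every TNG67 callus. LOC_Os08g03410 passed the filter of the fit through its IR64 calli alone, so its adjusted p is no independent support. The same holds for LOC_Os11g06770, also called higher in IR64, at 0 to 0.419 FPKM in TNG67 calli and 1.05 to 2.15 in IR64 calli. Among TNG67 calli LOC_Os11g10590 reached 1 FPKM at TF only, as did LOC_Os10g13850 among IR64 calli.

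**Figure D3:**
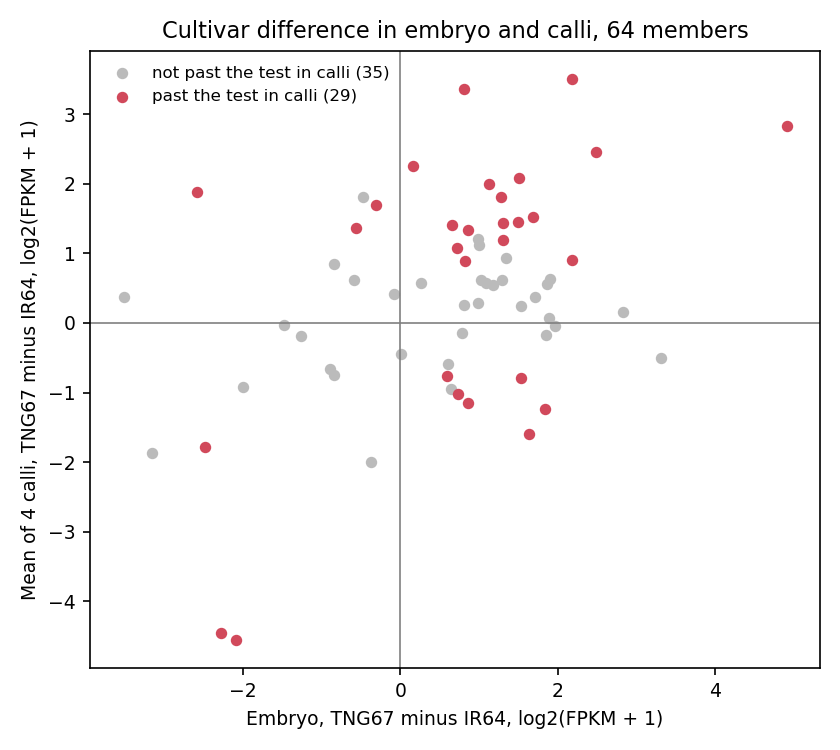
Difference between the cultivars, TNG67 minus IR64 in log2(FPKM + 1), in the embryo (horizontal, 1 library each) and in the mean of the 4 calli (vertical) for the 64 members; red points passed limma's test in the calli (29) and grey points did not or were not tested (35). Of the 20 red points above the horizontal line 17 are also on the TNG67 side of the embryo axis, and of the 9 below it 3 are on the IR64 side.

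The cultivar with more in the calli was not always the one with more in the embryo. Of the 20 members called higher in TNG67 calli, 17 were also higher in the TNG67 embryo. Of the 9 called higher in IR64 calli, 3 were higher in the IR64 embryo and 6 were higher in the TNG67 embryo. Over the 64 members the embryo and callus differences correlated at a Pearson r of 0.42 and a Spearman rho of 0.28. Over the other 2002 abundant loci the values were 0.05 and 0.08. Loci share their libraries and are not replicates, so these values carry no p, and the rule ties the callus level a member may have to its embryo level.

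The adjusted p of this comparison rests on 3 residual degrees of freedom and takes the 4 callus stages as replicates of a cultivar, and reads of an indica cultivar were mapped to a japonica genome, so transcript level and mapping cannot be told apart. The 29 calls (20 and 9) fell to 10 without TNG67 T2 (7 and 3) and 10 without IR64 T2 (7 and 3). They fell to 13 without TNG67 TS (7 and 6) and 14 without IR64 TS (8 and 6). With every locus above 0 in at least 1 callus tested, in place of the 1 FPKM filter, there were 16 (10 and 6). The 9 IR64-higher calls became 5 without TNG67 T1, 5 without IR64 T1 and 5 with the embryos in the fit.

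From subcultured to regenerated callus, members were higher more often than lower in both cultivars, as were the other abundant loci, and members more often passed 2-fold. From T2 to TS, 44 members were higher and 19 lower in TNG67, with a median of 0.49 on the log2(FPKM + 1) scale. In IR64 47 were higher and 17 lower, with a median of 0.4. The share of members higher was 68.8% in TNG67, below the 72.9% of the other abundant loci, and 73.4% in IR64, against 62.8%. The median of those other loci was 0.21 in TNG67 and 0.11 in IR64. Both cultivars agreed in sign upward for 37 members (57.8%), against 49.4% of the other abundant loci and 34.3% of all loci tested. A 2-fold higher level was reached by 32.8% of members in TNG67 and 25% in IR64, against 5.54% and 3.8% of the other abundant loci. The rule puts members lower in the calli than those loci, at medians of 2.36% to 5.81% of the embryo level against 43.7% to 58.5%. How much of the 2-fold shares at this and the other callus steps goes with level was not tested. At least 2-fold lower were 4 of the 64 members in TNG67 and 4 in IR64, also larger shares than the 1.86% and 1.38% of all loci tested. Of all loci tested, 2.64% in TNG67 and 1.13% in IR64 were at least 2-fold higher. The steps of the cultivars, which share no library, correlated over members at a Pearson r of 0.61 (Spearman rho 0.52), and over the other abundant loci at 0.33 (0.38). limma called 0 loci (0.0% of 22308, and 0 of 63 members). At an unadjusted p under 0.05 there were 11 members (17.5%), 9 of them higher, and 590 of all loci (2.64%). No tool other than limma was run on any comparison here.

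Of the steps from T2 to TS, the largest shared by both cultivars was that of LOC_Os11g47610 on chromosome 11, named like those below after the values were seen. It was at 6365.84 FPKM in the TNG67 embryo, and at 84.5 (T1), 40.5 (T2), 168 (TS) and 166 (TF) in the calli. In IR64 it was at 1757.35 FPKM in the embryo and at 93.2, 50.7, 195 and 172 in the calli. T2 was the lowest and TS the highest callus in each cultivar. In all, 11 of the 64 members were at least 2-fold higher at TS than at T2 in both cultivars, against 0.3% of all loci tested. In the other direction 2 were at least 2-fold lower in both, against 0.215%. Those 2 were LOC_Os05g28210 and LOC_Os05g04870, both on chromosome 5. LOC_Os05g28210 was at 45.8, 70.3, 23.5 and 15.4 FPKM in the TNG67 calli and at 18.5, 26.8, 1.53 and 7.99 in those of IR64. The calli of TNG67 held 0.302, 7.89, 1.62 and 2.95 FPKM of LOC_Os05g04870, and those of IR64 held 0.483, 5.34, 1.17 and 8.81. It was also the 1 member that was at least 2-fold apart between T1 and T2 in the same direction in both cultivars.

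**Figure D4:**
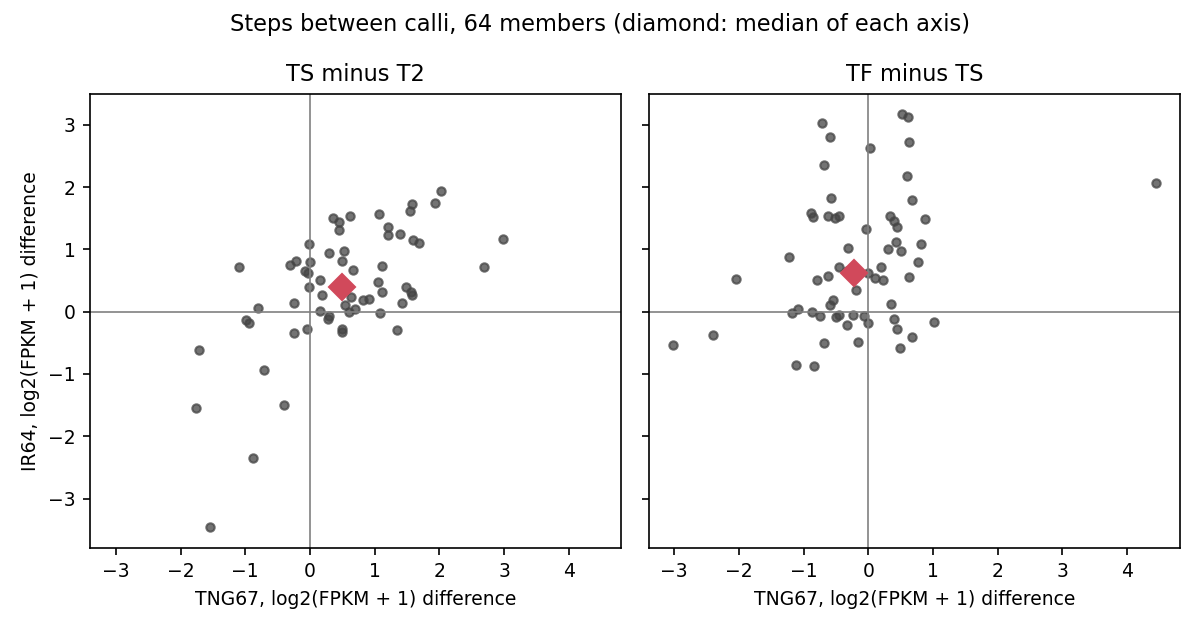
Difference of each member between callus stages in TNG67 (horizontal) and IR64 (vertical), in log2(FPKM + 1), for TS minus T2 (left) and TF minus TS (right); the red diamond marks the median of each axis. On the left the diamond is above 0 on both axes (0.49 and 0.4), and on the right it is below 0 for TNG67 (-0.22) and above 0 for IR64 (0.62).

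Failed callus was most often the highest callus for members in IR64, but not in TNG67. There members, like the other abundant loci and all loci tested, were more often lower in TF than in TS. In IR64 the TF library was the highest of the 4 calli for 39 members (60.9%) and the lowest for 3, while TF was the highest for 41.1% of the other abundant loci. In TNG67 the highest callus was TS for 23 members (35.9%, against 31.2% of the other abundant loci) and TF for 20 (31.2%, against 33.3%). Against TS, IR64 TF was higher for 44 members (68.8%, against 55.3% of the other abundant loci) and lower for 20. The median was 0.62 on the log2(FPKM + 1) scale. There 25 members were at least 2-fold higher, or 39.1%, against 10.5% of the other abundant loci and 8.46% of all loci tested. At least 2-fold lower were 0 members, against 4.24% of all loci tested. In TNG67 TF was higher than TS for 26 members and lower for 38, with a median of -0.22. The share higher was 40.6%, against 47.4% of the other abundant loci and 42.1% of all loci tested. In TNG67 2 members passed 2-fold upward (3.12%, against 6.94% of the other abundant loci and 8.41% of all loci tested). Downward it was 7 of the 64, a larger share than the 5.14% of all loci tested. LOC_Os11g10590, at 0.118 FPKM at TS and 23.3 at TF in TNG67 and at 31.9 and 137 in IR64, was the 1 member at least 2-fold higher in TF in both.

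Against the mean of T1, T2 and TS the failed callus was higher for 38 members in TNG67 (median 0.29) and 54 in IR64 (median 0.86). In TNG67 that share, 59.4%, was near the 56.0% of the other abundant loci, whose median was 0.07. In IR64 it was 84.4% against 55.5%, with a median of 0.09 for the other loci. In both cultivars TF was higher for 34 members (53.1%, against 34.3% of the other abundant loci). limma called 0 members and 0 loci of 22308 (0.0%) in this comparison, with a lowest adjusted p of 0.117 among members and 0.0759 among all loci. In every comparison of stages the cultivars serve as the replicates, with 3 residual degrees of freedom. A change in 1 cultivar alone adds to the spread, so 0 calls do not show that no locus changed. At an unadjusted p under 0.05 there were 18 of 63 members (28.6%), all 18 higher in TF, and 3387 of all loci (15.2%). TF against TS alone also gave 0 calls (0.0%), with 10 members and 1884 loci at an unadjusted p under 0.05. Without the TNG67 TF library 7 members and 637 loci were called for TF against the other calli, and without IR64 TF 1 member and 129 loci, each count resting on a single TF library assumed to vary like the other stages; for TF against TS the loci called were then 127 and 4, with 0 members. The rule keeps out loci that came back past 12.5% of the embryo level, so the size of any return seen in members is capped.

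Between newly induced and subcultured callus the median of the members had opposite signs in the cultivars. From T1 to T2, 35 members were higher and 28 lower in TNG67 (median 0.12), and 19 were higher and 45 lower in IR64 (median -0.24). The share higher in TNG67 was 54.7%, against 44.8% of the other abundant loci and 52.2% of all loci tested. For IR64 it was 29.7%, against 42.7% and 50.1%. The median of the other abundant loci was -0.06 in TNG67 and -0.08 in IR64. In TNG67 15 of the 64 members were at least 2-fold higher and 7 at least 2-fold lower, against 3.52% and 3.23% of all loci tested. The share higher was 23.4%, against 5.64% of the other abundant loci. In IR64 4 were at least 2-fold higher and 5 at least 2-fold lower, against 3.56% and 2.53% of all loci tested. The share higher was 6.25%, against 2.95% of the other abundant loci. Members thus passed 2-fold more often than all loci in both directions and both cultivars, and their lower callus level, given above, holds here too. This step and that from T2 to TS share the T2 library of each cultivar. T2 was the lowest of the IR64 calli for 36 members (56.2%, against 20.3% of the other abundant loci). In TNG67 T1 was the lowest for 27 (42.2%, against 33.2%) and T2 for 21 (32.8%, against 28.7%). limma called 0 loci (0.0%), with 3 members and 1264 loci at an unadjusted p under 0.05, or 4.76% and 5.67%.

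The members lay on all 12 chromosomes, 15 of them on chromosome 3. As a share of the loci with at least 50 FPKM in both embryos, they were most frequent on chromosome 12 (6 of 74, 8.11%) and chromosome 11 (6 of 77, 7.79%) and least frequent on chromosome 9 (1 of 102, 0.98%). On chromosome 3 the share was 4.35% of 345. In 2 places neighbouring identifiers were both members, and both places are on chromosome 3. Of the 128 identifiers next to a member, 17 were at 50 FPKM or more in both embryos, against 2066 of all 54170 loci. These 17 include the 4 members of the 2 pairs, each counted as neighbour of the other. Listed at 0 in both embryos were 30 of the 128, and the share of all loci was not computed.

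LOC_Os03g16950 and LOC_Os03g16960 are the first of these pairs. The embryos held 1381.85 and 681.88 FPKM of them in TNG67 and 677.897 and 277.979 in IR64. In IR64 the 4 calli held 4.03, 1.78, 7.46 and 58.4 FPKM of the first and 1.53, 0.664, 4.59 and 14.2 of the second, lowest at T2 and highest at TF for both. In TNG67 the first was highest at T1 (64.5, 3.68, 12.7 and 8.07 FPKM), and the second was highest at TF (4.95, 1.6, 8.94 and 12.1). LOC_Os03g19260 and LOC_Os03g19270 form the second pair, at 200.737 and 1658.33 FPKM in the TNG67 embryo and 113.673 and 828.558 in that of IR64. The TNG67 calli held 2.48, 5.24, 7.61 and 11.1 FPKM of LOC_Os03g19260 and 29.8, 96.9, 124 and 87.6 of LOC_Os03g19270. The IR64 calli held 2.95, 3.36, 4.79 and 10.3 of the first and 28.6, 17.7, 52.2 and 49.2 of the second. Both loci were lowest at T1 among the TNG67 calli, while the highest callus differed between them in both cultivars.

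A neighbour of LOC_Os05g39310, named after its values were seen, also resembled it without being a member. LOC_Os05g39320 was at 2449.78 FPKM in the TNG67 embryo and at 100, 181, 316 and 695 in its calli, and at 916.143 in the IR64 embryo and 80.5, 79.3, 170 and 110 in its calli. In TNG67 both loci were lowest at T1 and highest at TF. Not every abundant neighbour resembled its member. LOC_Os05g09490, next to the member LOC_Os05g09500, was at 144 FPKM in the TNG67 embryo and at 74.5 to 103 in the TNG67 calli. The authors kept unique alignments only, which removes reads of near-identical copies, and whether these neighbours are such copies was not tested.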

How the data were processed

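RNA was sequenced in 10 libraries, 1 per cultivar and stage; the 10 bisulfite libraries were not analysed here. Per the labels' protocols, the authors made libraries from 100 ng of RNA, checked reads with FastQC, aligned them with Bowtie to IRGSP-1.0, kept unique hits and deposited FPKM values made with TopHat. The sources used here give no tool versions, gene models or strand setting.

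The deposited table has 55166 rows for 54170 loci, and rows of the 968 repeated loci were summed; 2 members are among them. The members, lists and tests were chosen with earlier results of these data known. Callus differences were tested with limma 3.58.1 (R 4.3.3) on log2(FPKM + 1) over the 8 calli, with additive cultivar and stage, an intensity trend and Benjamini-Hochberg adjustment over 22308 loci (at least 1 FPKM in at least 2 calli; 63 members). Its script was tested on simulated data. Other values were computed in Python 3.11.15 (numpy 2.4.6, pandas 2.3.3). Fold values use FPKM + 1, which understates changes of low loci.

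Of 54170 identifiers 1, no member, matched the RefSeq table, so the planned product lists, markers, promoters and proteins were not used. The rule for named loci, with 2 per category where identifiers have no names, took the highest in the embryos, the nearest to and furthest from the limit, and the largest differences between embryos and among called loci. Alternatives were other pseudocounts, filters, scalings, fits and limits, single-row loci and each callus left out.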

Additional observations from a re-analysis of the deposited data

Results flagged for a closer look

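The median change of the members had opposite signs in the cultivars at 2 steps, and neither difference was tested, since each cultivar and stage has 1 library. From TS to TF the median was -0.22 in TNG67 and 0.62 in IR64 on the log2(FPKM + 1) scale, a difference of -0.84. The other abundant loci had medians of -0.03 and 0.07 at this step. From T1 to T2 the median of members was 0.12 in TNG67 and -0.24 in IR64, a difference of 0.36. For the other abundant loci it was -0.06 and -0.08.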

How the results depend on the processing

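The rule gave 64 members. It gave 204 at 4-fold, 22 at 16-fold, 34 with an embryo minimum of 200 FPKM and 29 after quantile normalization. With 1 callus library left out of the rule it gave 65 to 80, all 64 among them each time. The 29 members that differed between TNG67 and IR64 calli became 16 without the 1 FPKM filter, 10 of them higher in TNG67. They became 10 to 31 with 1 callus library left out (7 to 22 higher in TNG67, 3 to 9 higher in IR64). With all 10 libraries in the fit 5 members were higher in IR64. With no replicate block, that is without the stage term, 21 were called. Of the 29, 7 were called in every one of the 19 settings that gave a value, and none changed sign. All loci called in this comparison numbered 8845, 5145 at a mean of at least 5 FPKM, and 3137 to 10883 with 1 library left out. TF against the other calli gave 2 loci at that mean, and 0 to 637 loci and 0 to 7 members with 1 library left out; TF against TS gave 0 to 127 loci. Embryo counts toward TNG67 went from 6 to 29 at 2-fold and 3 after quantile normalization. The medians within a cultivar, recomputed after the data were seen, kept their sign under other pseudocounts and scalings. FPKM leaves depth unknown, so counting error at low callus values has no estimate.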
